A study of Mus musculus with 9 samples.

Results

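The 53 genes described here make up the NRF2 pathway and the antioxidant enzymes that work beside it. They hold NRF2 itself (gene Nfe2l2) with its inhibitor Keap1 and its partner Mafg, the enzymes that make, recycle and use glutathione, the thioredoxin and peroxiredoxin systems, the superoxide dismutases and catalase, enzymes that supply NADPH, proteins of heme and iron handling, and enzymes that act on quinones, carbonyls and epoxides. They were chosen by symbol from a list written with earlier results of these data known. Each matched 1 row of a table of 56748 genes. All 53 were among the 13812 genes with enough reads to be tested. RNA was sequenced from MLO-Y4 cells, an immortalized osteocyte-like line of the mouse, which had shared a transwell with primary articular chondrocytes, so that only what passed the porous insert connected the cell types. In the control group the chondrocytes were unstimulated. In the 24 h and 48 h groups the chondrocytes had been treated with IL-1β at 10 ng/mL for 6 h and washed before that length of co-culture. Each group had 3 libraries. All groups shared the same line on collagen-coated plates, with no genetic change named, and chondrocytes from C57BL/6J pups aged 5 to 6 days. The culture time of the control group is not given by the labels, so that stimulation and time in co-culture cannot be told apart in any comparison with control. The cell line field of the 48 h libraries differs from MLO-Y4 and from library to library, while the protocols name MLO-Y4 throughout.

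NRF2 is a transcription factor that KEAP1 holds in the cytosol and delivers to the proteasome. Oxidants and electrophiles modify cysteines of KEAP1, and NRF2 then accumulates, pairs with a small MAF protein and binds antioxidant response elements near its target genes. NRF2 is controlled mainly as a protein, so that the Nfe2l2 transcript is not a measure of its activity. Glutathione and thioredoxin are the main thiol carriers of the cell. Peroxidases draw on them to remove peroxides, and reductases that use NADPH restore them.

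Total counts ranged from 12250628 to 18515456 per library, and the spread within each group exceeded counting noise. The labels do not say that replicates were separate cultures, so that the p-values measure the spread between these libraries, which may be technical. The first principal component over all tested genes held 51.7% of the variance and set the 48 h libraries apart from the 6 others. Of 13 osteocyte markers, Gja1, Col1a1 and Pdpn were abundant, while Mepe, Fgf23 and Dkk1 had no read in any library and Sost and Dmp1 had at most 1 and 6 reads. The summed level of these 13 markers was 2976 to 3137 CPM (the count scaled to the library total) in control, 3037 to 3064 at 24 h and 3837 to 3901 at 48 h. Gja1 alone went from a mean of 1498 CPM in control to 2413 at 48 h. Of the 8 markers that could be tested, 3 were higher and 4 lower at 48 h, as were 22% and 24.4% of all tested genes. Of 13 chondrocyte markers, 5 had no read in any library, among them Acan and Col9a1, and Col2a1 had at most 7. Their summed level, nearly all of it Prg4, was 1681 to 1716 CPM in control, 1565 to 1649 at 24 h and 2127 to 2216 at 48 h. Of the 5 chondrocyte markers that could be tested, 3 were higher and 1 lower at 48 h, with log2 fold changes from -1.25 to 1.45. Macrophage markers summed to at most 7.93 CPM. How much the rise of the marker sums at 48 h has to do with the changes below was not tested.

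The antioxidant response element was looked for first, since it is the sequence through which NRF2 reaches its targets. Promoter sequences of 300 bases, 250 before and 50 after the annotated start, came from RefSeq (table build GRCm38.p6) and were present for 46 of the 53 genes. Abcc1, Gclc, Gsr, Gsta4, Hmox1, Prdx6 and Sod3 had none, and all of these but Sod3 were lower at 48 h. The core searched was TGACNNNGC, on both strands. It overlaps the AP-1 motif TGACTCA where the free bases read TCA, which was the case in 2 of the 12 genes that held the core. These 12 were 26.1% of the 46 genes, against 14% of all 27025 genes with such a promoter sequence. The core stood in 7 of 22 genes that were lower at 48 h, 2 of 10 that were higher and 3 of 14 that were not called. The following cases are shown because they span these outcomes and because Prdx1 and Me1 carry the same core. The core is in capitals with 10 bases on each side, written 5′ to 3′ on the strand that reads TGAC. A match describes letters in a window and not a bound site. Bases outside the windows were not searched, so that a gene without a match, such as Nqo1, may hold the core elsewhere.
Prdx1: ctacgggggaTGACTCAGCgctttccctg
Me1: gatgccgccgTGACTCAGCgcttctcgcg
Gclm: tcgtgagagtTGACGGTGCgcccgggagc
Txnrd1: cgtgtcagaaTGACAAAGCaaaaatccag
G6pdx: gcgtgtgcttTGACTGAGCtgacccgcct
Mgst1: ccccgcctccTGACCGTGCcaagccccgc
Nfe2l2: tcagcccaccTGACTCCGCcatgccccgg
Placed on GRCm39 by exact match, the Prdx1 sequence lies at chr4:116542653-116542681 on the minus strand, and its core falls in an intron of the gene as GENCODE annotates it. The Me1 sequence lies at chr9:86577955-86577983 on the minus strand and its core falls in an exon. The Gclm sequence is at chr3:122039062-122039090 on the minus strand, upstream of the gene. For Txnrd1 the sequence is at chr10:82694938-82694966 on the minus strand, in an intron. The G6pdx core falls in an exon, with the sequence at chrX:73472525-73472553 on the plus strand. The Mgst1 core also falls in an exon, with the sequence at chr6:138117459-138117487 on the minus strand. The Nfe2l2 sequence lies upstream of the gene at chr2:75535229-75535257 on the minus strand. The identical core of Prdx1 and Me1 went with different outcomes, since Prdx1 was lower at 48 h and Me1 was not called in any comparison.

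After 24 h with stimulated chondrocytes 13 of the 53 genes had changed and 40 had not passed the test. The mitochondrial superoxide dismutase Sod2, the glutaredoxin Glrx, the transferase Gstt1, the exporter Abcc1 and the peroxiredoxin Prdx5 rose. Gstm1, Mgst3, Gsta4, Ftl1, Osgin1, Gpx3, Ephx1 and Gpx4 fell. The median log2 fold change over the 53 genes was -0.029, beside -0.0042 over all tested genes. A gene was called at an adjusted p under 0.05 in edgeR's quasi-likelihood test, with adjustment over all 13812 genes. The calls were 9.43% of the 53 genes upwards and 15.1% downwards, while of all tested genes 3.25% were called higher and 2.9% lower, 6.15% in all. All 13 called genes had libraries that did not overlap between the groups. In all, 25 of the 53 genes had such libraries, a state that 21.5% of all tested genes shared. Without control replicate 3, 13 instead of 8 genes were called lower, with Prdx1, Tkt, Prdx4, Gpx8 and Gstm5 added, while 4.25% of all genes tested then were called lower.

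After 48 h the picture was wider and mostly downwards. Of the 53 genes 28 fell and 11 rose, and 14 were not called. The fall covered quinone reductase Nqo1, thioredoxin reductase Txnrd1, the glutathione synthesis genes, sulfiredoxin and the peroxiredoxins Prdx1, Prdx3 and Prdx6. It also covered heme oxygenase and, of the enzymes that yield NADPH, G6pdx and Pgd but not Me1. Those that rose included the transferases Gstt1, Mgst1, Gstm1 and Gstm2, the peroxidases Gpx1 and Gpx3, and the superoxide dismutases Sod2 and Sod3. The median log2 fold change was -0.17, beside -0.0022 over all tested genes. The genes that fell were 52.8% of the 53, against 24.4% of all tested genes. The genes that rose were 20.8%, near the 22% of all tested genes that rose, and 46.4% of all tested genes were called in either direction. Libraries of control and 48 h did not overlap for 42 of the 53 genes and for 53.1% of all tested genes. A lower level in bulk RNA can come from fewer cells that express a gene or from less RNA per cell, which cannot be told apart here.

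From 24 h to 48 h, 28 genes fell and 12 rose, and 13 were not called. These were 52.8% and 22.6% of the 53 genes, while 25.4% of all tested genes were lower, 23.7% were higher and 49.1% were called in either direction. The median log2 difference of the 53 genes was -0.27, beside -0.0017 over all tested genes. Libraries did not overlap for 40 of the 53 genes and for 59.4% of all tested genes. Of the 53 genes 21 were not called at 24 h and were lower at 48 h against both other groups. The share of all tested genes with that joint course was not counted, so that the 21 alone do not set these genes apart. The comparison of 48 h with 24 h holds no control library, and both of its groups had stimulated chondrocytes. It thus measures the step between the times.

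**Figure D1:**
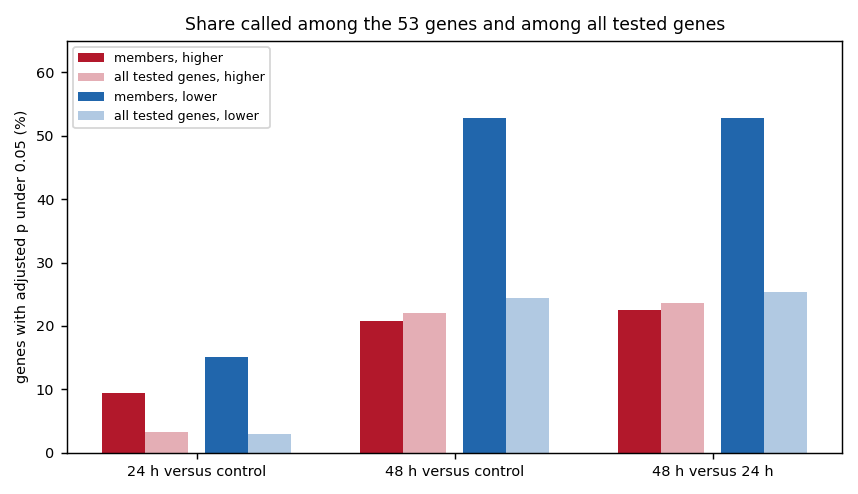
Share of genes called (adjusted p under 0.05, y axis in percent) among the 53 genes and among all tested genes, in each comparison and direction. Dark bars are the 53 genes and pale bars all tested genes. At 48 h the lower genes make up 52.8% of the 53 against 24.4% of all tested genes, while the shares of higher genes are 20.8% and 22%.

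**Figure D2:**
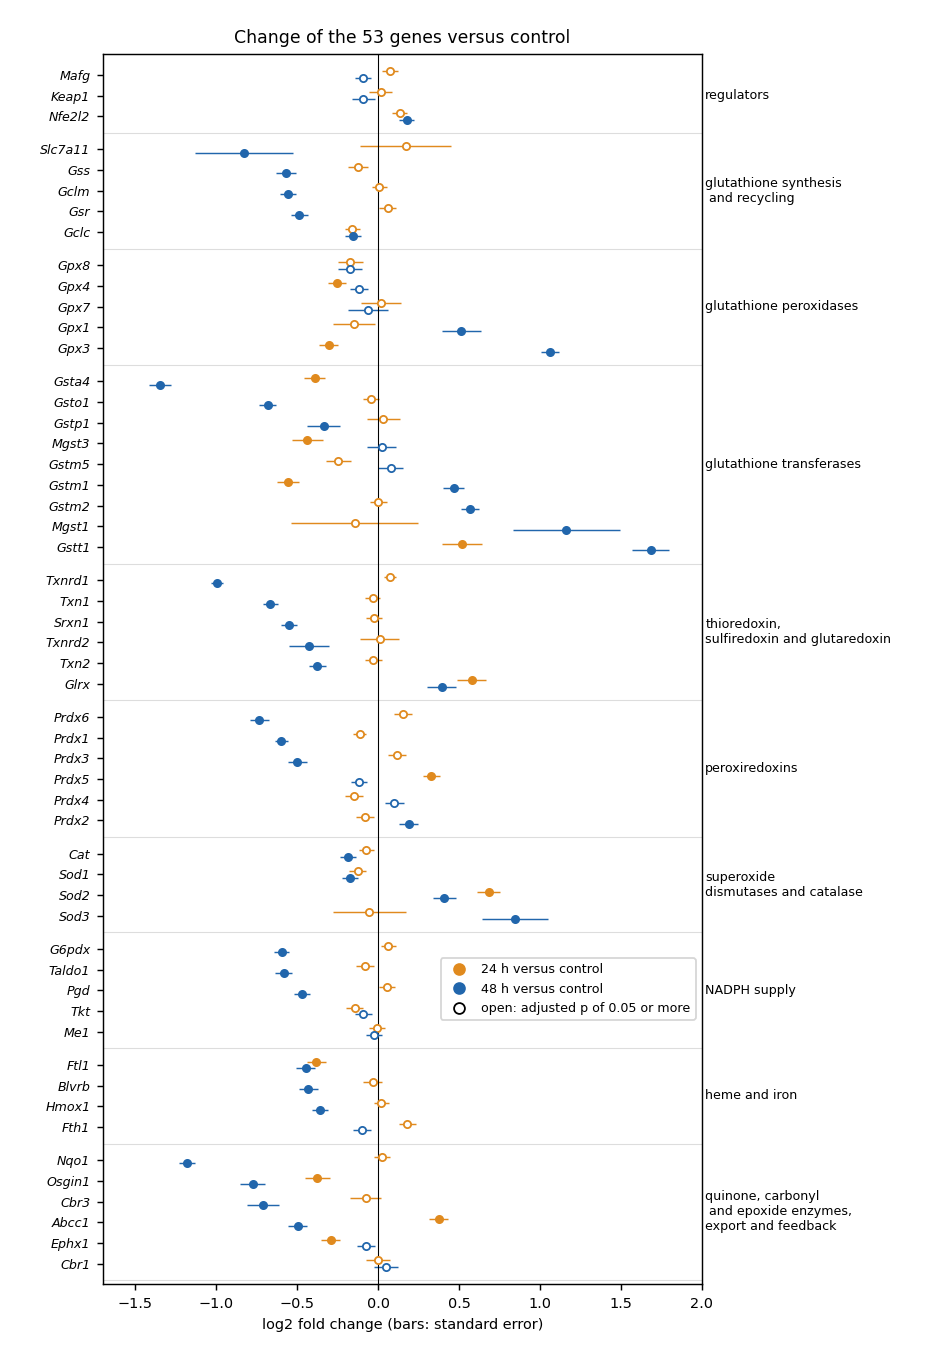
Log2 fold change versus control of each of the 53 genes (x axis, bars are SE), in orange at 24 h and in blue at 48 h, with genes grouped by role on the y axis. Filled points passed the test and open points did not. Most of the glutathione synthesis, thioredoxin, NADPH and quinone groups lie left of 0 at 48 h, with Glrx and the open point of Cbr1 on the right, while several transferases and peroxidases lie on the right.

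The regulators moved little. Nfe2l2, the gene of NRF2, stood at 181, 188 and 174 CPM in the control libraries, at 196, 201 and 197 at 24 h and at 204, 209 and 200.3 at 48 h. Both later groups lay above control in every library. The rise by 12.98% at 48 h passed the test (log2 fold change 0.18, SE 0.048, adjusted p = 0.00572), and at 24 h the adjusted p was 0.127. Keap1, whose protein tethers NRF2 for degradation, stood at 35.7, 35.7 and 39.1 CPM in control, 37.3, 34.8 and 39.7 at 24 h and 35.5, 33.02 and 35.2 at 48 h. The 48 h libraries lay just below control without passing the test (adjusted p = 0.319), and Keap1 was not called in any comparison. Mafg, a small MAF partner of NRF2, had 157, 147 and 152 CPM in control, 161, 157 and 161 at 24 h and 145, 143 and 138 at 48 h. Its 48 h libraries lay below both other groups, and it was called only between the times (log2 fold change -0.17, SE 0.050, adjusted p = 0.01), a call that was lost without 48 h replicate 3 (log2 fold change -0.14). Reads of Mafg and of Sirt7, which overlaps it, may be shared.

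Every gene of glutathione synthesis and recycling was called lower at 48 h, 5 of 5, with a median log2 fold change of -0.56, and none was called at 24 h. The calls of Gclc and Slc7a11 depended on single libraries, as given below. Beside the counts of this group and those that follow, 24.4% of all tested genes were lower and 22% higher at 48 h. Gclm, the modifier subunit of glutamate-cysteine ligase, which starts the synthesis, stood at 148, 145 and 143 CPM in control and 147, 147 and 146 at 24 h. At 48 h it stood at 99.3, 98.4 and 99.7. The control and 24 h libraries overlapped, and all 48 h libraries lay below them, and Gclm fell by 31.96% (log2 fold change -0.56, SE 0.049, adjusted p = 3.38e-08). Gss, glutathione synthetase, went from 64.5, 65.99 and 61.5 CPM in control and 55.8, 61.1 and 59.1 at 24 h to 42.3, 42.6 and 44.3 at 48 h. The 24 h libraries lay just below control without passing the test (adjusted p = 0.272), and the 48 h libraries fell below both (log2 fold change -0.57, SE 0.061, adjusted p = 4.05e-07). Gss overlaps Acss2 on the other strand. Gsr, glutathione reductase, which returns oxidized glutathione to its working form, fell by 28.6% (log2 fold change -0.49, SE 0.050, adjusted p = 2.88e-07).

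The catalytic subunit of the ligase, Gclc, fell by 10.2% at 48 h (log2 fold change -0.15, SE 0.048, adjusted p = 0.0131) and was not called between the times (adjusted p = 0.949). The call at 48 h was lost without control replicate 3 (log2 fold change -0.11) and without 48 h replicate 1 (-0.15). Slc7a11, the cystine importer that feeds the pathway, was the scarcest of the 53 genes per length. It stood at 2.76, 2.29 and 3.46 CPM in control, 3.74, 2.15 and 3.74 at 24 h and 1.31, 1.14 and 2.30 at 48 h, from 19 to 56 reads per library. The 48 h libraries were low but overlapped control by 1 library. Its fall at 48 h (log2 fold change -0.83, SE 0.30, adjusted p = 0.0301) was lost without control replicate 1 (log2 fold change -0.84), control replicate 3 (-0.66), 48 h replicate 1 (-0.71) or 48 h replicate 2 (-0.65).

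None of the 5 glutathione peroxidases was called lower at 48 h. At that time 2 rose, and at 24 h 2 had fallen. Gpx3, the secreted plasma form, stood at 75.3, 81.8 and 79.7 CPM in control, 67.2, 63.9 and 60.5 at 24 h and 169.9, 164 and 160.0 at 48 h. The groups did not overlap, with 24 h below control and 48 h far above both. Gpx3 thus fell by 19.1% at 24 h (log2 fold change -0.31, SE 0.059, adjusted p = 0.00297) and was 2.09-fold control at 48 h (log2 fold change 1.06, SE 0.057, adjusted p = 5.69e-11). Gpx1, the cytosolic form, had 11.4, 13.7 and 9.18 CPM in control, 10.7, 9.50 and 10.6 at 24 h and 17.2, 16.1 and 15.4 at 48 h. Control and 24 h overlapped and 48 h lay above both, with 1.43-fold control (log2 fold change 0.51, SE 0.12, adjusted p = 0.00196). Gpx4, which reduces lipid peroxides in membranes, fell by 16.1% at 24 h (log2 fold change -0.25, SE 0.057, adjusted p = 0.00983) and was not called at 48 h (adjusted p = 0.101). The 24 h call was lost without 24 h replicate 1 (log2 fold change -0.22). Gpx7 and Gpx8, which work in the endoplasmic reticulum, were not called in any comparison. Without control replicate 3, Gpx4 (log2 fold change -0.17) and Gpx8 (-0.25) were called lower at 48 h, as was Gpx8 (-0.18) with no filter on low counts.

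Glutathione transferases, which join glutathione to electrophiles, split in both directions. Of 9, 4 rose and 3 fell at 48 h. Gstt1 stood at 6.28, 8.91 and 8.05 CPM in control, 11.1, 10.42 and 11.5 at 24 h and 25.4, 24.9 and 23.6 at 48 h. The 3 groups were ordered without overlap, and at 48 h Gstt1 was 3.21-fold control (log2 fold change 1.68, SE 0.11, adjusted p = 1.03e-09), the largest rise among the 53 genes. Its smaller rise at 24 h (log2 fold change 0.52, SE 0.12, adjusted p = 0.0151) was lost without control replicate 1 (log2 fold change 0.38), 24 h replicate 1 (0.51) or 24 h replicate 3 (0.49). Gsta4, which acts on the lipid aldehyde hydroxynonenal, went the other way, from 124, 134 and 117 CPM in control over 93.3, 104 and 89.04 at 24 h to 49.8, 50.1 and 47.9 at 48 h. Again the groups were ordered without overlap. Gsta4 fell by 23.8% at 24 h (log2 fold change -0.39, SE 0.065, adjusted p = 5.97e-04). At 48 h it fell by 60.7% (log2 fold change -1.35, SE 0.067, adjusted p = 1.97e-11), the largest fall among the 53 genes.

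Within the mu class the members differed in course. Gstm1 stood at 244, 276 and 225 CPM in control, 157, 174 and 176 at 24 h and 353, 341 and 335 at 48 h. Like Gpx3 it was lowest at 24 h and highest at 48 h, with no overlap between groups. It fell by 32.03% at 24 h (log2 fold change -0.56, SE 0.066, adjusted p = 1.78e-05) and was 1.38-fold control at 48 h (log2 fold change 0.47, SE 0.064, adjusted p = 9.48e-06). Gstm2 had 133, 148 and 132 CPM in control and 134, 138 and 140.3 at 24 h, which overlapped, and 209, 199 and 202 at 48 h, which lay above both (log2 fold change 0.57, SE 0.054, adjusted p = 9.57e-08). Gstm5 was not called against control and was higher at 48 h than at 24 h (log2 fold change 0.32, SE 0.076, adjusted p = 0.00175), and it overlaps 4933431E20Rik on the other strand. The mu class genes are close copies, and how reads with several matches were counted is not stated, so that the share of each gene is uncertain.

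The remaining transferases were of several classes. Mgst1, a membrane-bound form, was scarce with 0.816, 1.31 and 0.602 CPM in control, 0.868, 0.521 and 1.06 at 24 h and 1.77, 1.92 and 2.35 at 48 h, from 8 to 44 reads per library. All 48 h libraries lay above the others (log2 fold change 1.16, SE 0.33, adjusted p = 0.00778). Gsto1, of the omega class, stood at 179, 179 and 169 CPM in control and 165, 173 and 173 at 24 h, which overlapped, and at 109.6, 112 and 106 at 48 h. It fell by 37.7% at 48 h (log2 fold change -0.68, SE 0.051, adjusted p = 4.21e-09). Mgst3, another membrane form, fell by 26.2% at 24 h (log2 fold change -0.44, SE 0.094, adjusted p = 0.0067), a call lost without 24 h replicate 1 (log2 fold change -0.38), and was not called at 48 h (adjusted p = 0.861). Gstp1, of the pi class, fell at 48 h (log2 fold change -0.34, SE 0.10, adjusted p = 0.0101), but not in DESeq2 (log2 fold change -0.32) or without 48 h replicate 1 (-0.28), and its 24 h libraries spread widely, at 293, 314 and 422 CPM.

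The thioredoxin system fell at 48 h apart from Glrx. Of 6 genes 5 fell, with a median log2 fold change of -0.49 over the 6, and none of these 5 was called at 24 h. Txnrd1, the cytosolic thioredoxin reductase that spends NADPH, stood at 1125, 1106 and 1129.7 CPM in control, 1175, 1178 and 1181 at 24 h and 553, 566 and 569 at 48 h. The 24 h libraries lay slightly above control without passing the test (adjusted p = 0.291), and at 48 h Txnrd1 fell by 49.8% (log2 fold change -0.99, SE 0.036, adjusted p = 5.13e-13). Txn1, cytosolic thioredoxin, had 411, 435 and 393 CPM in control, 394, 410.4 and 404 at 24 h and 266, 260.5 and 254 at 48 h. Control and 24 h overlapped and 48 h lay below both, and Txn1 fell by 36.97% (log2 fold change -0.67, SE 0.047, adjusted p = 2.20e-09). Srxn1, the sulfiredoxin that repairs overoxidized peroxiredoxins, went from 329, 353 and 316 CPM in control and 330.3, 317 and 334 at 24 h to 227, 227 and 227 at 48 h. The 48 h libraries were nearly identical and below all others (log2 fold change -0.55, SE 0.049, adjusted p = 3.67e-08). The mitochondrial forms Txn2 (log2 fold change -0.38, SE 0.053, adjusted p = 1.30e-05) and Txnrd2 (log2 fold change -0.43, SE 0.12, adjusted p = 0.00884) fell as well. Txnrd2 had the largest SE of the 6 genes at 48 h, and its call was lost without 48 h replicate 3 (log2 fold change -0.32).

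Glrx, the glutaredoxin that removes glutathione from proteins, was the exception. It stood at 21.3, 20.5 and 18.96 CPM in control, 29.3, 28.5 and 33.1 at 24 h and 29.3, 24.5 and 26.2 at 48 h. Both stimulated groups lay above control and overlapped each other. Glrx was 1.49-fold control at 24 h (log2 fold change 0.58, SE 0.090, adjusted p = 3.68e-04) and 1.31-fold at 48 h (log2 fold change 0.39, SE 0.090, adjusted p = 0.00148).

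**Figure D3:**
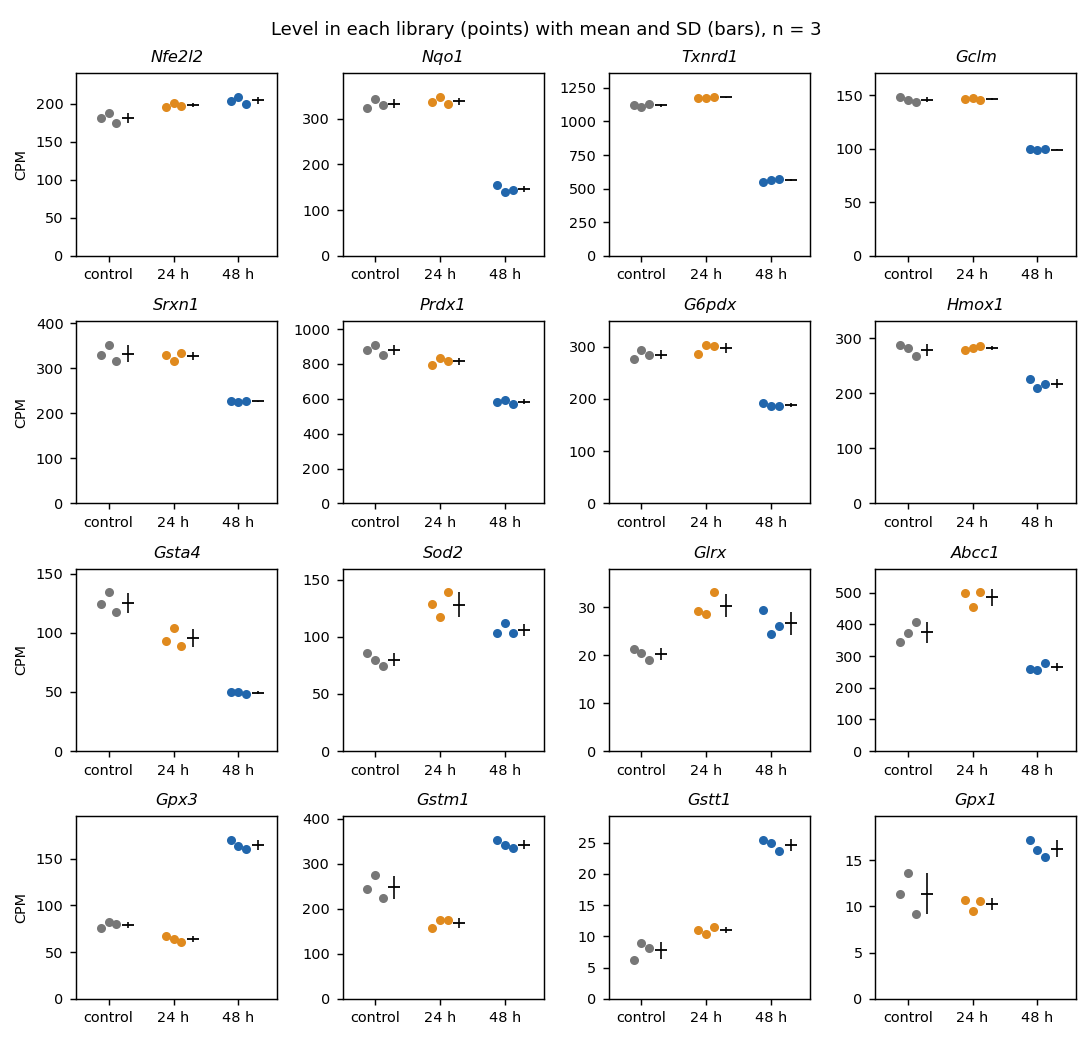
CPM (y axis, from 0, with its own scale in each panel) of 16 of the 53 genes in each library, by group on the x axis, with the mean and SD of 3 libraries beside the points. Nqo1, Txnrd1, Gclm, Srxn1, Prdx1, G6pdx and Hmox1 fall at 48 h after levels at 24 h near control, Sod2 and Glrx are raised at both times, and Gpx3 and Gstm1 dip at 24 h before they rise.

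Peroxiredoxins, which reduce peroxides and mostly draw on thioredoxin, included 3 of 6 that fell and 1 that rose at 48 h. Prdx1, the abundant cytosolic form, stood at 883, 910.2 and 853 CPM in control, 795, 834 and 817 at 24 h and 584, 596 and 568 at 48 h. The groups did not overlap, the step at 24 h did not pass the test (adjusted p = 0.122), and Prdx1 fell by 33.96% at 48 h (log2 fold change -0.60, SE 0.041, adjusted p = 1.32e-09). Prdx6, the form with a single working cysteine and phospholipase activity, had 149, 158 and 142 CPM in control, 169, 158 and 172 at 24 h and 93.5, 90.6 and 85.5 at 48 h. All 48 h libraries lay below the others, and Prdx6 fell by 39.9% (log2 fold change -0.73, SE 0.058, adjusted p = 9.57e-09). Prdx3, the mitochondrial form, had 96.1, 85.1 and 86.2 CPM in control and 95.2, 98.1 and 96.9 at 24 h, which overlapped, and 62.1, 62.6 and 64.5 at 48 h, which lay below both (log2 fold change -0.50, SE 0.059, adjusted p = 1.34e-06).

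The other peroxiredoxins were not called lower against control at 48 h. Prdx5, which is found in mitochondria, peroxisomes and cytosol, was 1.26-fold control at 24 h (log2 fold change 0.33, SE 0.050, adjusted p = 2.84e-04) and was not called at 48 h (log2 fold change -0.12, adjusted p = 0.0636). Without control replicate 3 it was called lower at 48 h (log2 fold change -0.13). From 24 h to 48 h it fell (log2 fold change -0.45, SE 0.050, adjusted p = 6.78e-07). Prdx2, a cytosolic form, was 1.14-fold control at 48 h (log2 fold change 0.19, SE 0.057, adjusted p = 0.0121), a call lost without 48 h replicate 1 (log2 fold change 0.16). Prdx4, of the endoplasmic reticulum, was called only between the times (log2 fold change 0.25, SE 0.057, adjusted p = 0.00141). Prdx2 overlaps Junb and Rnaseh2a, and Prdx5 overlaps Trmt112, on the other strand.

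Of the superoxide dismutases, Sod2 and Sod3 rose and Sod1 fell slightly at 48 h. Sod2, the manganese enzyme of the mitochondrial matrix and a known target of NF-κB, stood at 85.6, 79.7 and 74.1 CPM in control, 128, 117 and 139 at 24 h and 103, 112 and 103 at 48 h. The groups did not overlap, and the 24 h libraries were the highest. Sod2 was 1.60-fold control at 24 h (log2 fold change 0.68, SE 0.069, adjusted p = 2.99e-06), the largest rise of the 53 genes at that time, and 1.33-fold at 48 h (log2 fold change 0.41, SE 0.069, adjusted p = 8.99e-05), lower than at 24 h (log2 fold change -0.27, SE 0.067, adjusted p = 0.00246). Sod3, the extracellular form, was scarce, with 2.20, 2.13 and 2.11 CPM in control, 1.80, 2.34 and 2.05 at 24 h and 3.94, 3.54 and 4.11 at 48 h. Control and 24 h overlapped and 48 h lay above both (log2 fold change 0.85, SE 0.20, adjusted p = 0.00227).

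Sod1, the cytosolic copper-zinc form, fell by 11.3% at 48 h (log2 fold change -0.17, SE 0.051, adjusted p = 0.00986), a call lost without control replicate 2 (log2 fold change -0.12) or 48 h replicate 3 (-0.15). Catalase (Cat), the peroxisomal enzyme that splits hydrogen peroxide, fell by 12.2% (log2 fold change -0.19, SE 0.049, adjusted p = 0.00388). Neither Sod1 (adjusted p = 0.184) nor Cat (adjusted p = 0.467) was called at 24 h. Sod1 overlaps Scaf4 on the other strand.

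Among the genes of NADPH supply, 3 of 5 fell at 48 h and none was called at 24 h. G6pdx, glucose-6-phosphate dehydrogenase at the entry of the pentose phosphate pathway, stood at 276, 293 and 284 CPM in control, 286, 304 and 301 at 24 h and 192, 187 and 186 at 48 h. The first 2 groups overlapped and the 48 h libraries lay below both, and G6pdx fell by 33.8% (log2 fold change -0.60, SE 0.047, adjusted p = 9.15e-09). Taldo1, the transaldolase of the same pathway, had 253, 282 and 248 CPM in control, 244, 255 and 241 at 24 h and 176, 170.5 and 176 at 48 h. Again only the 48 h libraries stood apart (log2 fold change -0.58, SE 0.054, adjusted p = 6.41e-08). Pgd, the other dehydrogenase of the pathway that yields NADPH, fell by 27.8% (log2 fold change -0.47, SE 0.048, adjusted p = 2.73e-07). Tkt, transketolase, and Me1, the cytosolic malic enzyme, were not called in any comparison. G6pdx overlaps Ikbkg on the other strand.

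Of the heme and iron genes, 3 of 4 fell at 48 h. Ftl1, the ferritin light chain, stood at 1519, 1743 and 1446 CPM in control, 1184, 1260.3 and 1167 at 24 h and 1229, 1130.1 and 1089.8 at 48 h. Both stimulated groups lay below control and overlapped each other. Ftl1 fell by 23.3% at 24 h (log2 fold change -0.38, SE 0.059, adjusted p = 3.06e-04). At 48 h it fell by 26.7% (log2 fold change -0.45, SE 0.059, adjusted p = 5.25e-06). Fth1, the heavy chain with the ferroxidase site, was not called against control at either time (adjusted p = 0.0535 at 24 h and 0.132 at 48 h). It was called higher at 24 h in DESeq2 (log2 fold change 0.18) and in some other alternative runs. Between the times Fth1 fell (log2 fold change -0.28, SE 0.053, adjusted p = 2.50e-04). Hmox1, the heme oxygenase that releases iron and biliverdin, fell by 22.1% at 48 h (log2 fold change -0.36, SE 0.048, adjusted p = 6.23e-06), after levels at 24 h that overlapped control. Blvrb, a biliverdin and flavin reductase, fell by 25.8% (log2 fold change -0.43, SE 0.059, adjusted p = 8.64e-06). Ferritin genes have many processed copies in the genome, so that their counts depend on how reads with several matches were treated.

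Of the enzymes of quinones, carbonyls and epoxides, listed with the exporter Abcc1 and Osgin1, 4 of 6 fell at 48 h and none rose. Nqo1, the quinone reductase that serves as a standard readout of NRF2, stood at 324, 344 and 331 CPM in control, 335, 347 and 332 at 24 h and 154, 140.5 and 145 at 48 h. Control and 24 h overlapped, and every 48 h library was below all others, and Nqo1 fell by 55.97% (log2 fold change -1.18, SE 0.050, adjusted p = 2.46e-12). Osgin1, an oxidant-induced growth inhibitor, went from 37.4, 37.4 and 33.2 CPM in control over 28.5, 27.99 and 26.8 at 24 h to 22.1, 21.2 and 19.97 at 48 h. The groups were ordered without overlap, with log2 fold change -0.38, SE 0.076, adjusted p = 0.00397 at 24 h and log2 fold change -0.77, SE 0.077, adjusted p = 1.62e-07 at 48 h. Cbr3, a carbonyl reductase, had 43.4, 45.4 and 33.1 CPM in control, 38.8, 37.8 and 38.9 at 24 h and 25.1, 26.6 and 22.7 at 48 h. Only the 48 h libraries lay apart (log2 fold change -0.71, SE 0.10, adjusted p = 8.44e-06). Its near relative Cbr1 was not called in any comparison. Ephx1, the microsomal epoxide hydrolase, fell by 18.4% at 24 h (log2 fold change -0.29, SE 0.059, adjusted p = 0.00396) and was not called at 48 h (adjusted p = 0.313).

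Abcc1, the exporter of glutathione conjugates, reversed its direction. It was 1.30-fold control at 24 h (log2 fold change 0.37, SE 0.060, adjusted p = 4.74e-04) and fell by 29.2% against control at 48 h (log2 fold change -0.50, SE 0.060, adjusted p = 2.12e-06). The step between the times was also called (log2 fold change -0.87, SE 0.060, adjusted p = 1.47e-09). Gpx3 and Gstm1 had the opposite course, and these 3 were the genes of the 53 that were called in different directions at the times. Their changes at both times are measured against the same control libraries.

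Across the 53 genes, 30 were called against control at 48 h and not at 24 h, 9 at both times, 4 at 24 h and not at 48 h, and 10 at neither. The 4 were Prdx5, Gpx4, Mgst3 and Ephx1. Of all tested genes 6.15% were called against control at 24 h and 46.4% at 48 h, so that late calls prevailed there too. The shares of all tested genes in these joint classes were not counted. The 6 genes not called in any of the 3 comparisons were Keap1, Gpx7, Gpx8, Tkt, Me1 and Cbr1. By compartment, 3 of 4 mitochondrial enzymes fell at 48 h (Prdx3, Txn2, Txnrd2) and Sod2 rose. Prdx5, found in mitochondria and elsewhere, was not counted among them and was not called at 48 h. Of 5 enzymes of the secretory pathway or the extracellular space none fell, and Gpx3 and Sod3 rose. Of the 5 enzymes built with selenocysteine, Gpx1 and Gpx3 rose, Txnrd1 and Txnrd2 fell and Gpx4 was not called at 48 h. Of all tested genes 24.4% were lower and 22% higher at 48 h. Each of these groupings is described by its counts and was not tested as a set.

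Levels between genes were compared in TPM, which divide the scaled count by the gene length given in the table. Ferritin led, with Ftl1 at 3960.4 ± 297 TPM (SD, n = 3) and Fth1 at 3309 ± 267 in control. In CPM the order was the reverse, with control means of 3395 for Fth1 and 1570 for Ftl1. The order of genes in TPM thus rests on the deposited lengths, here 3469 bases for Fth1 and 1340 for Ftl1. The spreads of both overlapped at 48 h, where Ftl1 stood at 3035 ± 163 and Fth1 at 3229.8 ± 77.2 TPM. Txn1 followed with 1328 ± 35.02, Prdx1 with 981 ± 7.14 and Gpx4 with 913 ± 58.7 TPM in control. At 48 h Txn1 stood at 875 ± 11.02, Gpx4 at 880.2 ± 23.5 and Prdx1 at 677 ± 12.1 TPM, and Txn1 and Gpx4 did not differ beyond their spread. Gpx3 went from 147 ± 6.47 TPM in control to 321 ± 6.87 at 48 h, close to Nqo1, which went from 725 ± 18.9 to 334 ± 14.7 TPM. Gclm stood at 78.4 ± 1.72 TPM in control, below its catalytic partner Gclc at 164 ± 9.43. In control 35 of the 53 genes had 100 TPM or more. Only Txnrd2, Sod3, Mgst1 and Slc7a11 were under 10 TPM, with Slc7a11 at 0.693 ± 0.161.

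**Figure D4:**
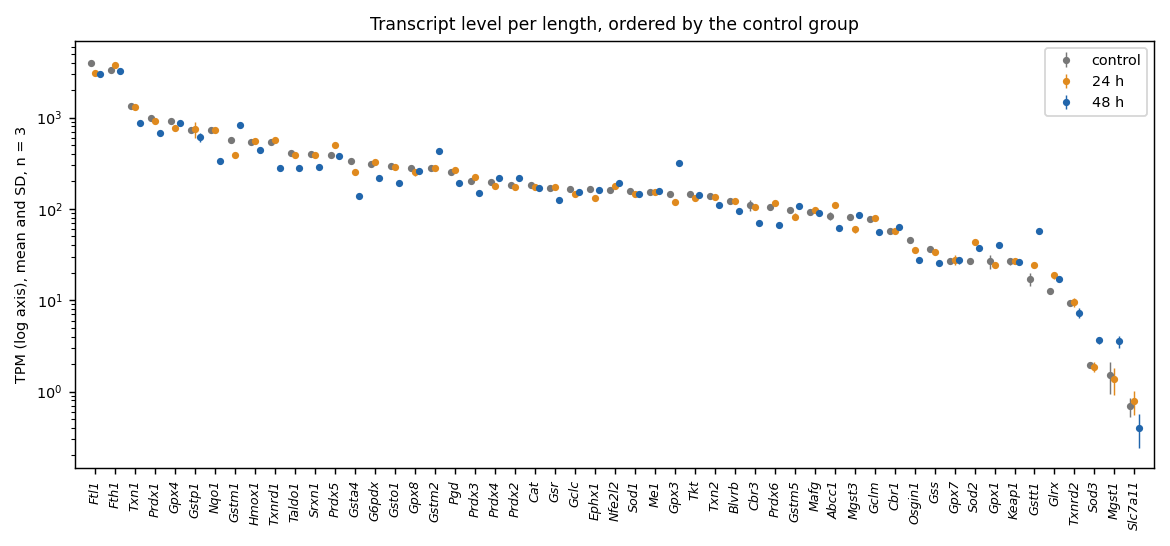
TPM (log axis, mean and SD of 3 libraries) of the 53 genes, in the order of the control level on the x axis, for control, 24 h and 48 h. Ftl1 and Fth1 lead in control and Slc7a11 is last at 0.693 TPM, and the 48 h points leave the control points downwards for Nqo1, Gsta4 and Txnrd1 and upwards for Gpx3 and Gstt1.

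Beyond the 53 genes, 105 other genes of the same pathways were listed, of which 85 could be tested. These lists too were made with earlier results of these data known. At 24 h 7 were higher and 7 lower. At 48 h 28 were higher and 25 lower. From 24 h to 48 h 24 were higher and 28 lower. The shares over all tested genes were 3.25% upwards and 2.9% downwards at 24 h, 22% and 24.4% at 48 h, and 23.7% and 25.4% between the times. Of other regulators of NRF2, 15 of 16 could be tested, and 6 rose and 5 fell at 48 h. Of 28 tested genes of glutathione and thioredoxin, 9 rose and 8 fell. Of 34 tested genes of NADPH, heme, iron and detoxification, 8 rose and 12 fell. Bach1, the repressor that competes with NRF2 for the response element and binds heme, was picked after its values were seen. It stood at 44.1, 35.7 and 45.4 CPM in control, 39.7, 37.4 and 37.3 at 24 h and 53.6, 57.4 and 59.3 at 48 h, above both other groups in every 48 h library (log2 fold change 0.44, SE 0.079, adjusted p = 1.64e-04). Sesn3, a stress-inducible sestrin, rose at 48 h (log2 fold change 1.29, SE 0.087, adjusted p = 1.13e-09). The other regulators that rose at 48 h were Sesn1 (log2 fold change 0.92), Bach2 (0.66), Maff (0.40) and Gsk3b (0.16). The 5 regulators that fell at 48 h were Sesn2 (log2 fold change -0.40), Sqstm1 (-0.32), Mafk (-0.25), Rbx1 (-0.20) and Cul3 (-0.19). Whether any of these regulators has to do with the changes of the 53 genes was not tested.

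Several other pathway genes that were called at 48 h handle glutathione, selenium, iron or aldehydes. Ggt5, an enzyme that cleaves extracellular glutathione and leukotrienes, stood at 12.7, 13.5 and 11.1 CPM in control, 6.34, 7.03 and 6.77 at 24 h and 44.3, 38.5 and 38.01 at 48 h. It was lowest at 24 h and highest at 48 h without overlap, the course of Gpx3 and Gstm1 (log2 fold change 1.69, SE 0.094, adjusted p = 8.30e-11). Selenop, the secreted carrier of selenium, followed the same course, with 17.3, 20.9 and 19.9 CPM in control, 14.1, 13.5 and 13.4 at 24 h and 47.6, 46.03 and 47.03 at 48 h (log2 fold change 1.28, SE 0.078, adjusted p = 2.67e-10). Chac1, which degrades glutathione inside the cell, fell at 48 h (log2 fold change -1.30, SE 0.10, adjusted p = 9.67e-09). Tfrc, the transferrin receptor that brings in iron, fell as well (log2 fold change -1.19, SE 0.060, adjusted p = 1.97e-11), as did the aldehyde dehydrogenase Aldh3a1 (log2 fold change -1.28, SE 0.060, adjusted p = 1.02e-11). Oplah, which recycles oxoproline to glutamate, rose (log2 fold change 0.99, SE 0.20, adjusted p = 5.16e-04), and Gsta2, a close copy in the alpha class with few reads, fell (log2 fold change -1.07, SE 0.29, adjusted p = 0.00569).

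Of 16 genes whose products form superoxide, peroxide or nitric oxide, 8 had enough reads, and 3 rose at 24 h and 5 at 48 h, with none lower. Of all tested genes 3.25% rose at 24 h and 22% at 48 h. The list was made with earlier results of these data known, so that its counts are not an independent result. Xdh, xanthine dehydrogenase, stood at 315, 344 and 352 CPM in control, 400.2, 391 and 416 at 24 h and 689.5, 667 and 698 at 48 h. The groups were ordered without overlap, with log2 fold change 0.26, SE 0.048, adjusted p = 0.00211 at 24 h and log2 fold change 1.02, SE 0.048, adjusted p = 1.02e-11 at 48 h. Ero1a, the oxidase of the endoplasmic reticulum that yields hydrogen peroxide, went from 97.4, 90.4 and 95.7 CPM in control over 135, 134 and 135 at 24 h to 197, 196 and 207 at 48 h, also without overlap (log2 fold change 1.08, SE 0.052, adjusted p = 1.17e-11). Its relative Ero1b rose at 48 h (log2 fold change 0.28, SE 0.085, adjusted p = 0.0106), as did the amine oxidase Aoc3 at about 1 CPM (log2 fold change 1.07, SE 0.38, adjusted p = 0.0262). Nos2, the inducible nitric oxide synthase, had no read in any control library and stood at 2.87, 2.08 and 4.30 CPM at 24 h and 4.17, 4.79 and 4.32 at 48 h. With a floor of 3 counts per control library, its level at 24 h was at least 14.0-fold higher than control. At 48 h the bound was at least 20.2-fold higher. The transcripts of oxidant-forming enzymes are not a measure of oxidants, which were not measured.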

How the data were processed

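RNA sequencing libraries were directional and read from both ends at 150 bases. Per the labels and methods, the authors trimmed reads, aligned them to the mouse genome (mm39, GRCm39) with HISAT2 and counted them per gene with featureCounts (version 2.06 in the submitters' processing notes, given differently in the methods, which also name RSEM). Strand use and the handling of reads with several matches are not given in the sources used here. The deposited table holds raw counts, whole numbers that were not normalized, and a gene length.

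Counts were analysed in R 4.3.3 with edgeR 4.0.16: filterByExpr with a minimum count of 10 kept 13812 of 56748 genes, library sizes were scaled by TMM, and 1 quasi-likelihood fit of all 9 libraries had group as its only term. P-values were Benjamini-Hochberg adjusted over all genes tested, with calls at 0.05. CPM is the count scaled to the TMM-adjusted library total, and TPM also divides by the deposited gene length. Standard errors (SE) were derived from the F statistic. Alternatives were DESeq2 1.42.0, other scaling, no filter, fits of 2 groups, a block and leaving out each library. The procedure was tested on 5 simulated sets with 200 changed genes each, far fewer than the 6408 genes called at 48 h. It recovered 87.4% of changes of log2 1 and 72.1% of changes of log2 0.5, and 3.68% of calls were false.

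The 53 genes and all lists were chosen with earlier results of these data known. Library values are given for the 3 regulators, for members called with an absolute log2 fold change of at least 0.5 against control, and for the member with the largest change at 48 h in each group. Up to 12 other genes with the largest changes, and all called oxidant-forming genes, are named. Bach1, and the listed regulators of NRF2 that rose or fell at 48 h, are named besides. Pairing of the libraries by replicate number was not shown: correlations of deviations between libraries of the same number lay between -0.049 and 0.077. Positions of sequence cores relative to genes follow GENCODE vM39.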

Additional observations from a re-analysis of the deposited data

Results flagged for a closer look

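The change against control at 48 h differed from that at 24 h for 40 of the 53 genes in edgeR's quasi-likelihood test of the difference itself, which is the comparison of 48 h with 24 h. The values here are log2 differences, 48 h minus 24 h. As 49.1% of all tested genes passed the same test, the count of 40 alone does not set these genes apart.

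In 3 of the 40 the changes at the times were called in opposite directions. The difference was 1.37 for Gpx3 and 1.02 for Gstm1, which fell and then rose, and -0.87 for Abcc1, which rose and then fell.

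The other differences upwards were mostly among the transferases and peroxidases. They were 1.31 for Mgst1, 1.16 for Gstt1, 0.90 for Sod3, 0.66 for Gpx1 and 0.56 for Gstm2. Smaller ones were 0.46 for Mgst3, 0.32 for Gstm5, 0.27 for Prdx2, 0.25 for Prdx4 and 0.22 for Ephx1.

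Downwards, the differences of about 1 were -1.21 for Nqo1, -1.07 for Txnrd1, -0.999 for Slc7a11, -0.95 for Gsta4 and -0.89 for Prdx6. In the thioredoxin system the others were -0.63 for Txn1, -0.53 for Srxn1, -0.44 for Txnrd2 and -0.35 for Txn2. In glutathione synthesis and recycling they were -0.56 for Gclm, -0.54 for Gsr and -0.45 for Gss. The NADPH genes had -0.66 for G6pdx, -0.52 for Pgd and -0.50 for Taldo1. Among peroxiredoxins and dismutases the values were -0.62 for Prdx3, -0.49 for Prdx1, -0.45 for Prdx5 and -0.27 for Sod2. The heme and iron genes had -0.40 for Blvrb, -0.38 for Hmox1 and -0.28 for Fth1. The rest were -0.64 for Gsto1, -0.63 for Cbr3, -0.40 for Osgin1, -0.37 for Gstp1 and -0.17 for Mafg. The call of Gstp1 was lost without 24 h replicate 3, where its difference was -0.19, and in DESeq2, where it was -0.36. That of Mafg was lost without 48 h replicate 3, where it was -0.14.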

How the results depend on the processing

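No called gene of the 53 changed direction under any alternative run. The counts of calls stayed within 1.5 times the reported ones under all alternatives but the omission of control replicate 3, which raised the 24 h lower calls from 8 to 13 by adding Prdx1, Prdx4, Gpx8, Gstm5 and Tkt. With 1 library left out, 4 to 7 genes were higher and 6 to 13 lower at 24 h, 10 to 12 higher and 25 to 30 lower at 48 h, and 12 to 13 higher and 27 to 29 lower between the times. Pairing by replicate number was not shown, though 5 of 9 libraries correlated best with a library of their own number. With the replicate number as a block, 6 were higher and 8 lower at 24 h. At 48 h 11 were higher and 28 lower, and between the times 13 and 28. The gene added at 24 h was Fth1. Fth1 was also added with RLE scaling, with no filter and without control replicate 2. Gclc was added as lower at 24 h with library size alone and without control replicate 2, where Prdx6 was added as higher. Between the times, Gpx4 was added as higher with the block, other scaling or the 2 groups alone. The same held without control replicate 2, control replicate 3 or 24 h replicate 2. Cat was added as lower with the 2 groups alone and Glrx without 48 h replicate 1. DESeq2 gave 6 and 8 at 24 h, again with Fth1, and 11 and 27 at 48 h, where Gstp1 was lost, as it was between the times. At 48 h, Fth1, Gpx4, Prdx5 and Gpx8 were added as lower without control replicate 3, Fth1 and Gpx8 with no filter on low counts, and Prdx4 as higher without control replicate 1. The fit of the 2 groups alone lost Gstt1 at 24 h. At an adjusted p under 0.01, Gstt1 at 24 h, Gstp1, Prdx2, Gclc and Slc7a11 at 48 h, and Mafg between the times were not called. Keap1 at 24 h, never called, stood at a log2 fold change of 0.015 and at -0.0039 with library size alone, and lay between -0.029 and 0.066 with 1 library left out. For these changes the cause was not tested beyond the smaller number of libraries. Depth limits Slc7a11, Mgst1 and Sod3, with at most 77 reads per library.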
